A study of Mus musculus with 8 samples.

Results

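The data described here compare neural progenitor cells (NPC) made from Wdr68 knockout stem cells with NPC made from wild-type stem cells, 2 libraries each. They are 4 of the 8 libraries of a mouse RNA sequencing series. The other 4 libraries are the embryonic stem cells (ESC) of the same 2 genotypes, and they entered only the estimate of the spread and, where stated, as a reference level. Both genotypes are on the E14 line, a mouse ESC line widely used for gene targeting. The wild-type group carries no listed modification, and the knockout group carries a knockout of Wdr68 with no other listed allele. The labels give neither the method of the knockout nor the number of clones behind it. Both groups went through one protocol: aggregation in hanging drops for 2 days, suspension culture as embryoid bodies for 2 days and retinoic acid for 4 days. Stem cells grown on fibroblast feeders had first been passaged on gelatin. The labels mention no sorting of the embryoid bodies, so each library holds the RNA of all the cells in them. The labels speak of duplicates without saying whether these were separate cultures, so the p-values measure library spread only, and that spread may be technical.

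WDR68, also named DCAF7, is a small WD40-repeat protein that binds DYRK and HIPK kinases and serves as an adaptor in several complexes. The series title ties it to the PRC1-AUTS2 complex, a Polycomb repressive complex 1 variant with PCGF3 or PCGF5 in which AUTS2, together with casein kinase 2, favours transcription rather than silencing. Neural differentiation in embryoid bodies proceeds from SOX2 and PAX6 positive progenitors, which Notch signalling holds in the dividing state, to neurons, which proneural factors specify. Retinoic acid pushes embryoid body cells towards this fate and activates the Hox genes from the 3′ end of each cluster. The same aggregates can also form mesoderm, blood, endothelium and epithelium.

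Levels are the FPKM values that the authors deposited: sequenced fragments divided by transcript length in kilobases and by the library's mapped fragments. A gene was tested when it reached 1 FPKM in at least 2 of the 4 NPC libraries, which 12436 of 24308 symbols did. Differences are log2(FPKM + 1), knockout minus wild type, with their standard error (SE), from a limma fit. A gene was called higher or lower when its Benjamini-Hochberg adjusted p over all genes tested was below 0.05. Adding 1 FPKM makes the difference of genes with low levels smaller than their change in level. The confidence bounds in the tables imply 5996677 to 7942644 fragments per NPC library, and a gene at about 1 FPKM rests on roughly 21.8 to 29.0 fragments. Across genes, which are not independent, duplicates correlated at r = 0.952 in the wild type and 0.964 in the knockout. Libraries of different genotype correlated at 0.89 to 0.913. The ESC duplicates, which enter the same estimate of the spread, were closer, at 0.981 in the wild type and 0.979 in the knockout. Calls from the NPC libraries alone are given at the end.

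Of the 12436 genes, 3717 (29.9%) were called, 2028 (16.3%) higher and 1689 (13.6%) lower in the knockout. Although higher calls were more numerous, the lower calls were larger; with median-ratio scaling the lower calls were also more numerous, 1837 against 1578. The order also turned without knockout replicate 1, with 1139 higher and 1295 lower, and was 1290 against 1292 without knockout replicate 2. Without wild-type replicate 2 there were 1316 higher and 1268 lower. The median difference was 0.56 among genes called higher and -0.87 among genes called lower, against 0.06 over all genes. With a change of at least 2-fold in FPKM + 1 also required, 1038 genes (8.35%) remained, 312 (2.51%) higher and 726 (5.84%) lower. A difference of 3 or more on the log2 scale was reached by 12 genes called higher and 63 called lower. At the extremes, 73 of the 8170 genes at 5 FPKM or more in both wild-type libraries were below 1 FPKM in both knockout libraries. The reverse held for 14 of the 8138 genes at 5 FPKM or more in both knockout libraries. Both counts include small RNA entries, such as Snord104 in the former and Mir10a in the latter, which the naming of genes leaves out. The groups did not overlap for 65.7% of all genes, so the separation of 2 libraries from 2 others was common here and is given below only as a description. Shares of a gene list called higher or lower are to be read against 16.3% and 13.6%. A member that passed the filter only through the libraries of 1 genotype could hardly be called in the other direction. Tnnt2, Myl7, Tal1, Mylk, Apoa1 and Gdf6 passed only through the knockout, and Olig3, Dll1, Dll3 and Lbx1 only through the wild type. Members of this kind were not counted per list. Where a list has no call in one direction, limma gave at most 2 of its members an unadjusted p below 0.05 in that direction.

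**Figure D1:**
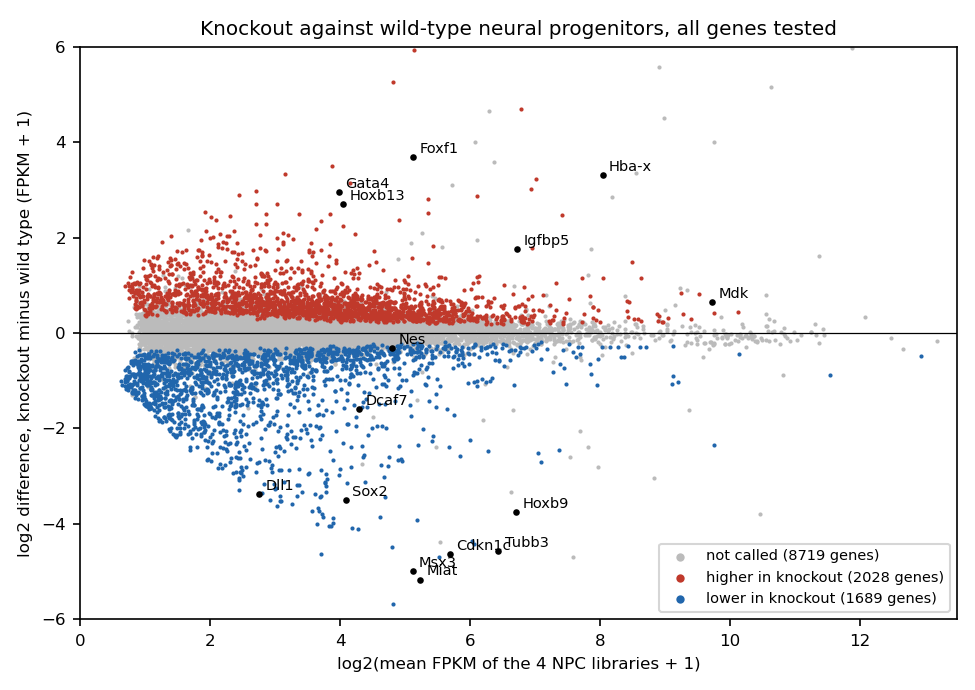
Log2 difference in FPKM + 1, knockout minus wild-type NPC (vertical axis), against log2 of the mean FPKM + 1 over the 4 NPC libraries (horizontal axis), 1 point per gene tested. Red points are the 2028 genes called higher, blue points the 1689 called lower and grey points those not called, and 12 genes lie outside the axes. More blue points than red ones lie 3 or more from 0 (63 against 12 over all genes), with Miat, Msx3, Cdkn1c and Tubb3 far below 0 and Foxf1 and Hba-x above 3.

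The targeted gene is listed as Dcaf7, on chromosome 11 (chr11:105898186-105920637, mm9). Its level was 27.2 and 29.6 FPKM in the wild-type NPC and 8.36 and 8.99 FPKM in the knockout NPC. The log2 difference was -1.60 ± 0.12 (SE; adjusted p = 7.3e-05), and the knockout libraries lay below both wild-type libraries. A Dcaf7 signal of about 30.5% of the wild-type level was therefore left in the knockout NPC, and the labels do not say which exons the knockout removes. In the ESC from which the NPC came, the mean levels were 13.3 FPKM in wild type and 2.53 FPKM in the knockout.

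Most genes of the other subunits of the complex were not called, while Auts2 was lower and Rybp higher. Among 13 genes listed for PRC1-AUTS2, 1 was called higher and 3 lower, with a median difference of -0.04. Auts2, which gives the complex its name, stood at 14.1 and 14.7 FPKM in the wild type and 7.87 and 8.2 FPKM in the knockout (-0.77 ± 0.12, adjusted p = 0.00279), and the groups did not overlap. Rybp, a subunit that Polycomb complexes of this kind share, went from 24.2 and 21.9 to 40.1 and 37 FPKM (0.72 ± 0.08, adjusted p = 5.5e-04). The E3 ligase gene Rnf2 kept 61.9 and 60.4 FPKM in the wild type and 60.7 and 57.9 FPKM in the knockout and was not called. Pcgf3 (-0.25) and Pcgf5 (0.60) were not called either, nor were the casein kinase 2 genes Csnk2a1 (-0.12) and Csnk2b (-0.04). The calls of Fbrsl1 (-0.53) and Ring1 (-0.39), both lower, were lost when single libraries were left out, with adjusted p up to 0.111 and 0.117; without either knockout library or wild-type replicate 2, 1 of the 3 lower calls stood.

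Of 24 other Polycomb subunits tested, 4 were higher, 3 lower and 17 not called, close to the shares over all genes. The changes were small. Rbbp7, a histone-binding subunit shared by several chromatin complexes, rose by 0.56 and Kdm2b, which brings a PRC1 variant to CpG islands, changed by -0.48. The catalytic subunit gene Ezh2 differed by -0.22 and its paralogue Ezh1 by 0.41, and both calls were lost without any 1 of the 4 libraries (adjusted p 0.077 to 0.175). Suz12 (0.44), Ezh1 and Cbx2 (0.37), 3 of the 4 higher genes, lie on chromosome 11, whose genes are described below. Of the 18 subunits tested on other chromosomes, 1 was higher. Cbx7 (-0.55), a chromobox subunit, lost its lower call without knockout replicate 2 or wild-type replicate 2 (adjusted p up to 0.0787), and 1 of the 3 lower calls stood without either of these libraries. The calls of Suz12 and Cbx2 were both lost without knockout replicate 1 or wild-type replicate 2, and that of Cbx2 also without knockout replicate 2 (adjusted p up to 0.0682 and 0.149). Among 11 genes for WDR68-binding kinases and the CUL4 ubiquitin ligase, Map3k1 rose from 5.33 and 4.06 to 14.2 and 11.4 FPKM (1.28 ± 0.15, adjusted p = 7.3e-04) and Cul4b by 0.41, while the other 9, Ddb1 and Rbx1 among them, were not called.

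Genes of neural progenitors were much lower in the knockout. Of 34 listed transcription factors, 26 passed the filter on levels, and 24 of them were called lower, 1 higher and 1 was not called; the median difference was -1.91. Sox2, which maintains neural progenitors as well as stem cells, had 30.4 and 29.9 FPKM in the wild type and 1.15 and 2.47 FPKM in the knockout (-3.51 ± 0.19, adjusted p = 2.2e-05). Pax6, a regional and neurogenic factor of the neural tube, went from 14.3 and 14.4 to 2.27 and 3.1 FPKM (-2.06 ± 0.14, adjusted p = 5.1e-05). In both cases the knockout values lay far below the wild-type ones, although Pax6 stayed above its ESC mean of 0.278 FPKM in wild type and 0.229 FPKM in the knockout.

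Several of the widest falls in this group concerned factors of the dorsal neural tube. Msx3, a homeobox gene of the dorsal spinal cord, had 71.7 and 60.2 FPKM in the wild type and 0.248 and 2.55 FPKM in the knockout (-4.99 ± 0.41, adjusted p = 1.2e-04). Olig3, which marks dorsal progenitors, stood at 9.2 and 8.48 FPKM in the wild type and was listed at 0 in both knockout libraries (-3.30 ± 0.12, adjusted p = 8.0e-06). Zic1 and Zic2, zinc-finger factors of the dorsal neural plate, changed by -3.43 and -3.53 on the log2 scale, and the POU factor Pou3f2 by -3.73. The single factor called higher was Nr2f2, an orphan nuclear receptor also used in mesenchyme and veins, with 30.6 and 27.6 FPKM in the wild type and 65.8 and 53.3 FPKM in the knockout (1.0 ± 0.15). Sox9, which neural progenitors share with neural crest and several mesodermal tissues, was at 19.7 and 19.7 FPKM in the wild type and 14.9 and 18.3 FPKM in the knockout and was not called.

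Proteins of radial glia, the progenitor type that spans the neuroepithelium, were lower more often than genes in general. Of 19 tested, 10 (52.6%) were lower, 3 (15.8%) higher and 6 not called, with a median of -0.51. The lower share lay above the 13.6% over all genes, and the higher share was close to 16.3%. Fabp7, a fatty-acid-binding protein of radial glia, stood at 89.4 and 84.9 FPKM in the wild type and 2.78 and 2.02 FPKM in the knockout (-4.70 ± 0.32, adjusted p = 4.8e-05). The RNA-binding protein gene Msi1 went from 69 and 69.9 to 13.1 and 16.7 FPKM (-2.16 ± 0.13). By contrast Nes, which encodes the intermediate filament nestin, had 29.8 and 30.2 FPKM in the wild type and 25.4 and 22.4 FPKM in the knockout, and its difference of -0.32 ± 0.11 was not called (adjusted p = 0.0754). Its groups did not overlap, and its ESC means were 2.01 FPKM in wild type and 2.81 FPKM in the knockout. Hmga2 (-0.14) and N-cadherin, Cdh2 (-0.33), were not called. The growth factor genes Mdk and Ptn, made by many embryonic tissues, rose by 0.65 and 0.48; the call of Ptn was lost without knockout replicate 1 or wild-type replicate 2 (adjusted p up to 0.168). The third higher gene, Tnc (0.78), a matrix protein, lost its call without either knockout library (adjusted p up to 0.0939), so that 1 higher call stood without knockout replicate 1.

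These libraries carry the label of neural progenitors in both genotypes. In the wild type the 8 markers listed for that cell type summed to 263 and 266 FPKM, and in the knockout to 46.2 and 49.1 FPKM, of which Nes alone gave 25.4 and 22.4. Of the 8 markers, 7 were called lower and Nes was not called. The label is therefore kept here as the name of the protocol for the knockout group. In RNA from whole embryoid bodies, fewer cells of a type and less RNA per cell cannot be told apart.

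**Figure D2:**
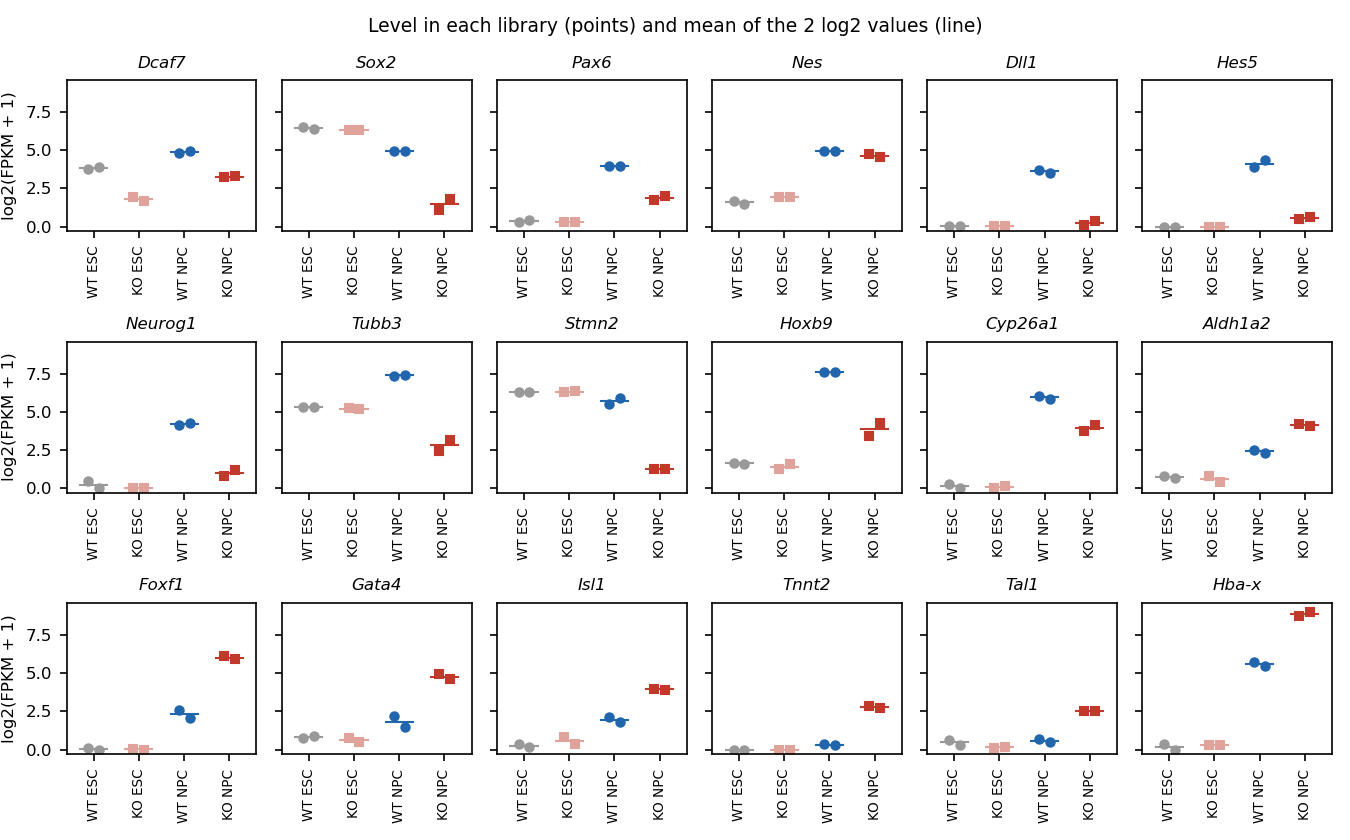
Level of 18 genes as log2(FPKM + 1) (vertical axis) in each of the 8 libraries, by genotype and stage; points are libraries and lines the mean of the 2 log2 values. Sox2, Pax6, Dll1, Hes5, Neurog1, Tubb3, Stmn2, Hoxb9 and Cyp26a1 are lower in both knockout NPC libraries (red) than in both wild-type NPC libraries (blue), Nes stays close, and Aldh1a2, Foxf1, Gata4, Isl1, Tnnt2, Tal1 and Hba-x are higher.

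The Notch pathway keeps neighbouring progenitors from becoming neurons at the same time. Ligands, targets and the receptor gene Notch1 were among its lower members, while several core components were not called. Of 18 genes tested, 10 were lower, 1 higher and 7 not called, with a median of -0.68. Among ligands, Dll1 had 12 and 10.5 FPKM in the wild type and 0.0801 and 0.275 FPKM in the knockout (-3.38 ± 0.13, adjusted p = 8.0e-06). Dll3, a ligand-like protein of nascent neurons and somites, had 4.96 and 6.32 FPKM in the wild type and 0 and 0.0822 FPKM in the knockout (-2.67 ± 0.14). Both genes were near 0 in the knockout.

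Lfng and Mfng, glycosyltransferases that tune Notch receptors, changed by -2.26 and -1.86 on the log2 scale. Hes5, the Notch target that represses proneural genes in neural progenitors, went from 14.1 and 19.3 to 0.402 and 0.527 FPKM (-3.58 ± 0.16, adjusted p = 8.8e-06). Nrarp, a feedback inhibitor, changed by -2.94. Hes1, a target of the same pathway that is used far outside the nervous system, had 21 and 22.6 FPKM in the wild type and 22.2 and 19.4 FPKM in the knockout, overlapping values, and was not called. Among the receptors, Notch1 (-1.23) was called lower, and Notch2 (0.33) and Notch3 (-0.27) were not called. Jag2 (-0.83), Dll4 (-0.62) and Heyl (-0.74) were lower as well, while Jag1 (0.34) and Hey1 (0.31) were not called. The DNA-binding partner of Notch, Rbpj (-0.15), was not called either. The coactivator gene Maml1 was called higher (0.38), a call that was lost without knockout replicate 1 or either wild-type library (adjusted p up to 0.155).

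The promoter of Hes5 is shown because this target had the widest fall of the Notch genes tested. The sequence is the 200 bases before the RefSeq start (GRCm38.p6, chr4:154960723-154960922, plus strand), and the capitals mark TGGGAA, the core of the site bound by RBPJ, 82 bases before the start. TGGGAA on either strand occurs in 17.3% of the 32851 RefSeq promoters of this length, so the match is a description.
Hes5: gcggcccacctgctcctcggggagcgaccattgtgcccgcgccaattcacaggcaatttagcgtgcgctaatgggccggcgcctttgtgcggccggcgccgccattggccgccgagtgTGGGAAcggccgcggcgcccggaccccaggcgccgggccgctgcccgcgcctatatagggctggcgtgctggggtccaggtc

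Proneural and neurogenic factors fell as a group, with 19 of 21 lower, none higher and a median of -2.12. Neurog1, a basic helix-loop-helix factor that starts neuronal differentiation, had 16.3 and 18.1 FPKM in the wild type and 0.707 and 1.32 FPKM in the knockout (-3.19 ± 0.20, adjusted p = 3.5e-05). Nhlh1 and Nhlh2, expressed in newly born neurons, changed by -3.28 and -3.67. Ebf3, Myt1 and Insm1, which act downstream of the proneural factors, changed by -3.16, -3.12 and -2.84. Onecut2 (0.35) and Bhlhe22 (-0.18), both below 4 FPKM, were not called.

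The wild-type NPC also held RNA of neurons, and most of it was missing from the knockout. All 28 genes tested for the neuronal cytoskeleton and cell body (of 30 listed) were called lower, with a median of -2.94. Tubb3, neuronal beta-III tubulin, had 162 and 168 FPKM in the wild type and 4.42 and 7.85 FPKM in the knockout (-4.58 ± 0.19, adjusted p = 8.0e-06). Stmn2, a microtubule regulator of growing axons, had 45.5 and 59.2 FPKM in the wild type and 1.37 and 1.33 FPKM in the knockout (-4.49 ± 0.12, adjusted p = 2.6e-06). For both genes the knockout NPC lay below the ESC as well, where the wild-type means were 39.1 FPKM for Tubb3 and 78.1 FPKM for Stmn2.

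The filament gene Ina, alpha-internexin, went from 22.3 and 29.4 to 0.419 and 0.823 FPKM (-4.05 ± 0.17). Tagln3, Stmn3 and Crmp1, all linked to the neuronal cytoskeleton, changed by -4.36, -4.08 and -3.85. The neuron marker sum (Tubb3, Stmn2, Dcx, Elavl3, Elavl4 and Ina) was 294 and 324 FPKM in the wild type and 8.85 and 14.4 FPKM in the knockout. In the ESC libraries this sum was 120 to 122 FPKM, most of it from Tubb3 and Stmn2. All 6 markers were called lower.

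Homeobox factors that name spinal interneuron and motor neuron classes were lower in 8 of 13 cases and higher in 3. Lhx1, Lhx5, Lbx1, Pax2 and Pax8, factors of inhibitory and dorsal interneurons, changed by -2.87, -2.93, -2.65, -2.47 and -2.38. Lbx1, at 5.12 and 6.31 FPKM in the wild type, was at 0.13 and 0 FPKM in the knockout. The 3 called higher were Isl1, Gata2 and Lhx2. Isl1, which is also needed in second heart field progenitors, had 3.39 and 2.45 FPKM in the wild type and 14.6 and 14.1 FPKM in the knockout (1.98 ± 0.19, adjusted p = 2.7e-04). Gata2, also a factor of blood progenitors and endothelium, had 5.9 and 6.06 FPKM in the wild type and 21.5 and 19.3 FPKM in the knockout (1.62 ± 0.17). Lhx2 went from 1.59 and 1.83 to 5.92 and 4.48 FPKM (1.19 ± 0.17).

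Of 18 synaptic genes tested (of 31 listed, the others being too low), 12 were lower and none higher. Snap25, a vesicle fusion protein, had 11 and 10.4 FPKM in the wild type and 1.35 and 0.998 FPKM in the knockout (-2.43 ± 0.13, adjusted p = 2.0e-05). The glutamate receptor gene Gria2 changed by -1.95 and the sodium channel gene Scn3a by -1.99. Vamp2, which many secretory cells use, was at 22.2 and 23.1 FPKM in the wild type and 22.3 and 22.2 FPKM in the knockout and was not called.

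Among 28 guidance and adhesion genes, 13 were lower, 4 higher and 11 not called. Robo3, which steers commissural axons at the midline, had 26.8 and 26.8 FPKM in the wild type and 0.38 and 1.23 FPKM in the knockout (-3.99 ± 0.21, adjusted p = 1.7e-05). Cntn2, Epha3, Dcc and the proteoglycan gene Ncan changed by -3.26, -3.06, -2.99 and -2.92. Slit3 (1.19), Unc5c (0.97) and Epha4 (0.89), which also act in mesenchyme and vessels, were called higher. Nrp1 (0.08), Robo1 (-0.18) and Efnb2 (0.31) were not called.

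Some of the largest falls outside the neural lists were in genes of neural tissue. Miat, a long noncoding RNA of neurons and retina, had 75.8 and 68.4 FPKM in the wild type and 0.374 and 1.99 FPKM in the knockout (-5.17 ± 0.31, adjusted p = 3.1e-05). The brain creatine kinase gene Ckb went from 134 and 118 to 5.67 and 4.17 FPKM (-4.43 ± 0.13). Pantr1, a noncoding RNA transcribed next to Pou3f3, went from 73.6 and 60.6 to 3.02 and 4.01 FPKM. Igfbpl1 and the transcript AI854517 changed by -4.04 and -4.0. All of these showed the 2 knockout libraries far below the 2 wild-type ones.

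Mature glia were hardly present in either genotype. Of 15 listed astrocyte and oligodendrocyte genes 6 could be tested, with 1 lower (Slc1a2, -1.90), 1 higher (Pdgfra, 1.20, also a gene of mesenchyme) and 4 not called. Gfap, the astrocyte filament gene, was listed at 0 in both wild-type libraries.

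The neural crest list, 16 genes of the population that leaves the dorsal neural tube, had 9 lower, 1 higher and 6 not called, with a median of -0.83. Ednrb, the endothelin receptor of migrating crest, had 47.3 and 37.1 FPKM in the wild type and 4.38 and 6.33 FPKM in the knockout (-2.77 ± 0.18, adjusted p = 4.3e-05). Tfap2b, Tfap2a, Msx1, Msx2 and Alx1 changed by -1.91, -1.36, -1.87, -1.63 and -1.17. Ets1, also an endothelial factor, rose by 1.13. Twist1 (0.09), Snai1 (0.37) and Snai2 (0.33), which crest shares with mesenchyme, were not called.

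Genes of lateral and intermediate mesoderm, the tissue that gives rise to heart, gut wall, limb and kidney, moved in the opposite direction. Of 20 tested, 17 were called higher, none lower and 3 not called, with a median of 1.20. Foxf1, a forkhead factor of splanchnic mesoderm, had 5.1 and 3.11 FPKM in the wild type and 67.8 and 59.5 FPKM in the knockout (3.69 ± 0.19, adjusted p = 1.7e-05). Fendrr, the noncoding RNA transcribed from the other strand next to Foxf1, had 1.82 and 1.01 FPKM in the wild type and 26.1 and 25.7 FPKM in the knockout (3.50 ± 0.17, adjusted p = 1.3e-05). Both knockout libraries lay above both wild-type libraries for each of the pair.

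Gata4, a zinc-finger factor of heart, gut and gonad precursors, had 3.5 and 1.82 FPKM in the wild type and 30 and 23.5 FPKM in the knockout (2.95 ± 0.24, adjusted p = 1.1e-04). Tcf21, which marks epicardial and visceral mesenchyme, had 3.06 and 3.53 FPKM in the wild type and 22.5 and 18.9 FPKM in the knockout (2.34 ± 0.13). Barx1, a homeobox gene of stomach mesenchyme, went from 0.208 and 0.379 to 9.15 and 8.01 FPKM (2.89 ± 0.16). The knockout libraries lay above both wild-type libraries in each of these cases. Meis2 (0.01) and Tbx3 (0.20) were not called.

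The 5 lateral mesoderm markers summed to 15.4 and 12.7 FPKM in the wild type and 134 and 111 FPKM in the knockout; 4 were called higher and Hand1 was below the filter. In the ESC the same sum was 0.538 to 1.12 FPKM. The wild-type embryoid bodies thus held this RNA as well, at a lower level. The early and paraxial mesoderm list could be tested for 6 of 20 genes, with Foxc2 (1.47), Foxc1 (0.80) and Meox1 (0.93) higher and Uncx (-2.52), which is also used in the spinal cord, lower.

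Heart muscle genes appeared at low levels. Of 20 listed 8 were tested, 6 of them higher and none lower. Tnnt2 and Myl7 passed the filter only through the knockout libraries, so a lower call was hardly possible for them. Tnnt2, cardiac troponin T, had 0.267 and 0.242 FPKM in the wild type and 6.1 and 5.52 FPKM in the knockout (2.44 ± 0.11, adjusted p = 8.8e-06). Tnni1, the slow skeletal troponin I that the embryonic heart uses, went from 2.8 and 2.3 to 12.9 and 14.8 FPKM (2.06 ± 0.15). Myl7, the atrial light chain, had no listed signal in the wild-type NPC and 2.45 and 1.46 FPKM in the knockout NPC, below the ESC, whose wild-type mean was 18.2 FPKM. Myh6 and Nkx2-5, defining genes of heart muscle, stayed below 0.25 FPKM in all 4 NPC libraries.

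Of 8 smooth muscle genes 3 were higher and none lower. Mylk, the myosin light chain kinase gene, went from 0.338 and 0.447 to 2.99 and 3.19 FPKM (1.55 ± 0.11). Acta2 (0.14) and Tagln (0.31) were not called. Of the higher calls, that of Smtn (0.37) was lost without any 1 library and that of Cald1 (0.47) without knockout replicate 1 or wild-type replicate 2, so that without either of these 2 libraries 1 of 8 was higher.

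Globin RNA, made by red blood cells, was present in the wild-type NPC and several times as high in the knockout. All 7 globin genes tested differed upwards by 2.50 or more and 6 were called, with a median of 3.24. Hba-x, the embryonic zeta globin gene, had 52.2 and 42.7 FPKM in the wild type and 430 and 525 FPKM in the knockout (3.31 ± 0.16, adjusted p = 1.3e-05). Hbb-y, embryonic epsilon-y globin, had 30.2 and 21.7 FPKM in the wild type and 194 and 242 FPKM in the knockout (3.03 ± 0.19). Hbb-bh1, embryonic beta-H1 globin, had 29.7 and 18.9 FPKM in the wild type and 206 and 261 FPKM in the knockout (3.24 ± 0.35). The groups were well apart for each of these genes.

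The adult alpha-globin genes Hba-a1 and Hba-a2 are nearly identical copies, and the tables split their reads unevenly between libraries. Hba-a1 was listed at 39.4 and 0.265 FPKM in the wild type and 125 and 272 FPKM in the knockout, and its call (adjusted p = 0.0357) was lost without either knockout library, with adjusted p from 8.0e-04 to 0.16 over the libraries left out. Their sum was 39.4 and 42.8 FPKM in the wild type and 268 and 351 FPKM in the knockout, 7.53-fold higher. The copies Hbb-b1 and Hbb-b2 summed to 5.46 and 2.82 FPKM in the wild type and 34.1 and 32.9 FPKM in the knockout, 8.09-fold higher. All 7 globins together gave 157 and 129 FPKM in the wild type and 1133 and 1412 FPKM in the knockout, 8.9-fold higher. Hba-a1, Hba-a2 and Hba-x lie on chromosome 11 and the beta-type genes on chromosome 7.

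Erythroid regulators and enzymes followed at much lower levels, with 10 of 12 higher and 1 lower. Tal1, a basic helix-loop-helix factor that founds the blood lineage, had 0.581 and 0.383 FPKM in the wild type and 4.72 and 4.78 FPKM in the knockout (1.96 ± 0.14, adjusted p = 6.3e-05). Lmo2, its partner, had 2.26 and 1.17 FPKM in the wild type and 7.31 and 7.59 FPKM in the knockout (1.67 ± 0.21), and Alas2, the erythroid enzyme of haem synthesis, went from 0.77 and 1.27 to 5.13 and 4.3 FPKM (1.51 ± 0.15). Tfrc, the transferrin receptor that all growing cells use, was the lower one (-0.67 ± 0.08). Gata1, the erythroid master factor, was below the filter, listed at 0 in both wild-type libraries and at 0.76 and 0.759 FPKM in the knockout. Klf1 was below the filter too, at no more than 0.776 FPKM.

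The promoters of Hba-x and Hbb-y are shown because these embryonic globins from different chromosomes rose together. Each line gives the 200 bases before the RefSeq start (GRCm38.p6; Hba-x chr11:32276400-32276599, plus strand; Hbb-y chr7:103853208-103853407, minus strand). Capitals mark GATAA or its reverse complement TTATC, which GATA factors bind, CCACCC, the CACC box that Krüppel-like factors bind, and TATAAA, the TATA box. On either strand and in windows of this length, GATAA occurs in 18.1%, CCACCC in 24.1% and TATAAA in 9.96% of RefSeq promoters. Hba-x holds GATAA 107, CCACCC 96 and TATAAA 28 bases before the start, and Hbb-y holds TTATC 162 and CCACCC 112 bases before it.
Hba-x: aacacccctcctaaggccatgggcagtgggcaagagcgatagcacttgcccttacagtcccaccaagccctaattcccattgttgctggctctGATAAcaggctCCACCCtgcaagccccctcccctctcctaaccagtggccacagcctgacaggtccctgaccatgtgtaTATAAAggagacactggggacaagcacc
Hbb-y: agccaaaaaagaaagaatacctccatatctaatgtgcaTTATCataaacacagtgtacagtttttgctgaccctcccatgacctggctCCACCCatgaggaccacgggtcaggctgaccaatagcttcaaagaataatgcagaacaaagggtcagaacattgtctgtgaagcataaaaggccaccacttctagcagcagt

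Endothelial genes were higher in most cases: 13 of 20 were higher, 1 lower and 6 not called, with a median of 0.87. Pecam1, an adhesion protein of endothelium, platelets and ESC, had 1.95 and 2.68 FPKM in the wild type and 9.79 and 10.4 FPKM in the knockout (1.75 ± 0.12, adjusted p = 5.4e-05). Kdr, the VEGF receptor, had 1.27 and 1.25 FPKM in the wild type and 2.97 and 2.87 FPKM in the knockout (0.79 ± 0.11). Egfl7, Ramp2, Tie1 and Tek rose by 1.54, 1.62, 1.27 and 1.15, and the ETS factor gene Fli1 by 1.06. Sox17, an endothelial and endodermal factor, was lower (-0.64), a call that was lost without knockout replicate 1 or wild-type replicate 2 (adjusted p up to 0.0575). The 5 endothelial markers summed to 7.91 and 8.41 FPKM in the wild type and 26.5 and 25.7 FPKM in the knockout, and all 5 were called higher. In the ESC libraries the same sum was 24 to 25.8 FPKM, of which Pecam1 alone gave 22.1 to 24.7 FPKM.

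Other blood cells were scarce. Of 16 listed genes 5 were tested, with Itga2b (1.71), the platelet integrin, and Cd34 (0.99) higher and Kit (-1.06), a receptor of progenitors and of many other cells, lower; the call of Cd34 was lost without wild-type replicate 2 (adjusted p 0.0513). The macrophage marker Adgre1 was listed at 0 in all 4 NPC libraries, and Ptprc and Csf1r were below 0.3 FPKM.

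Epithelial genes were moderately higher. Of 17 tested 13 were higher, none lower and 4 not called, with a median of 0.73. Epcam, an epithelial adhesion protein, had 17 and 21.6 FPKM in the wild type and 36 and 40.4 FPKM in the knockout (0.96 ± 0.13, adjusted p = 0.0016). Cldn4, a tight junction claudin, had 38.2 and 45.1 FPKM in the wild type and 86.9 and 88.9 FPKM in the knockout (1.06 ± 0.09). Krt8 and the epithelial splicing factor gene Esrp1 rose by 0.76 and 0.99. Without knockout replicate 1, knockout replicate 2 or wild-type replicate 1 the count of higher members was 8, 6 and 8, and the call of Krt19 (1.15) was lost without any 1 library (adjusted p 0.0549 to 0.124).

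Endodermal lists were mixed. In definitive endoderm, 6 of 11 were higher and 4 lower. Hhex (1.23) and Hnf4a (0.87), transcription factors of liver and gut, were higher at levels below 5 FPKM. Cxcr4 (-1.96), Prox1 (-1.52) and Onecut1 (-0.89), which are also expressed in the developing nervous system, were lower. In extraembryonic endoderm, 7 of 12 were higher and 2 lower. Apoa1, an apolipoprotein gene, had 0.205 and 0 FPKM in the wild type and 3.4 and 1.54 FPKM in the knockout (1.61 ± 0.24). Gata6 and Sparc rose by 1.40 and 1.0. Gata4 and Gata6, both among the higher genes, are also members of the lateral mesoderm list. The higher call of Ihh (0.79) and the lower call of Col4a1 (-0.42) were lost without any 1 library. Afp and Ttr, defining genes of visceral endoderm, were below 1 FPKM in all 4 libraries.

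Trophoblast genes were mostly too low to test, with 2 of 5 higher (Krt8 and Krt18) and Prl3d1 listed at 0 in every library; the call of Krt18 was lost without knockout replicate 2 or wild-type replicate 1 (adjusted p up to 0.122). The core pluripotency genes Pou5f1 and Nanog were far below their ESC level in both genotypes. Pou5f1 was at 2.8 and 1.72 FPKM in the wild type and 1.95 and 1.4 FPKM in the knockout, against 787 to 859 FPKM in the 4 ESC libraries, and was not called. Nanog was at 2.87 and 1.36 FPKM in the wild type and 1.91 and 2.05 FPKM in the knockout and was not called. Of 12 pluripotency genes tested, 3 were higher and 2 lower, with a median of 0.04; the higher ones were Klf5 (1.03), Klf4 (0.60) and Klf2 (0.52), which epithelia and vessels also express. The call of Klf4 was lost without wild-type replicate 2 and that of Klf2 without either knockout library or wild-type replicate 1 (adjusted p up to 0.0571 and 0.0839).

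Fibroblast genes were checked because the protocol mentions feeder cells. Of 19 fibroblast and mesenchyme genes, 9 were lower and 4 higher. The 4 fibroblast markers summed to 38.8 and 42.5 FPKM in the wild type and 32.2 and 29.9 FPKM in the knockout, against no more than 0.309 FPKM in the ESC. Dcn (-1.31) and Lum (-1.72) were lower and Col1a2 (0.45) was not called. The sums of the mesoderm, erythroid, endothelial, neuron and progenitor markers, most of which are members of the lists above, differed between the groups without overlap, and the part of cell type make-up in the difference of any other gene was not tested.

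**Figure D3:**
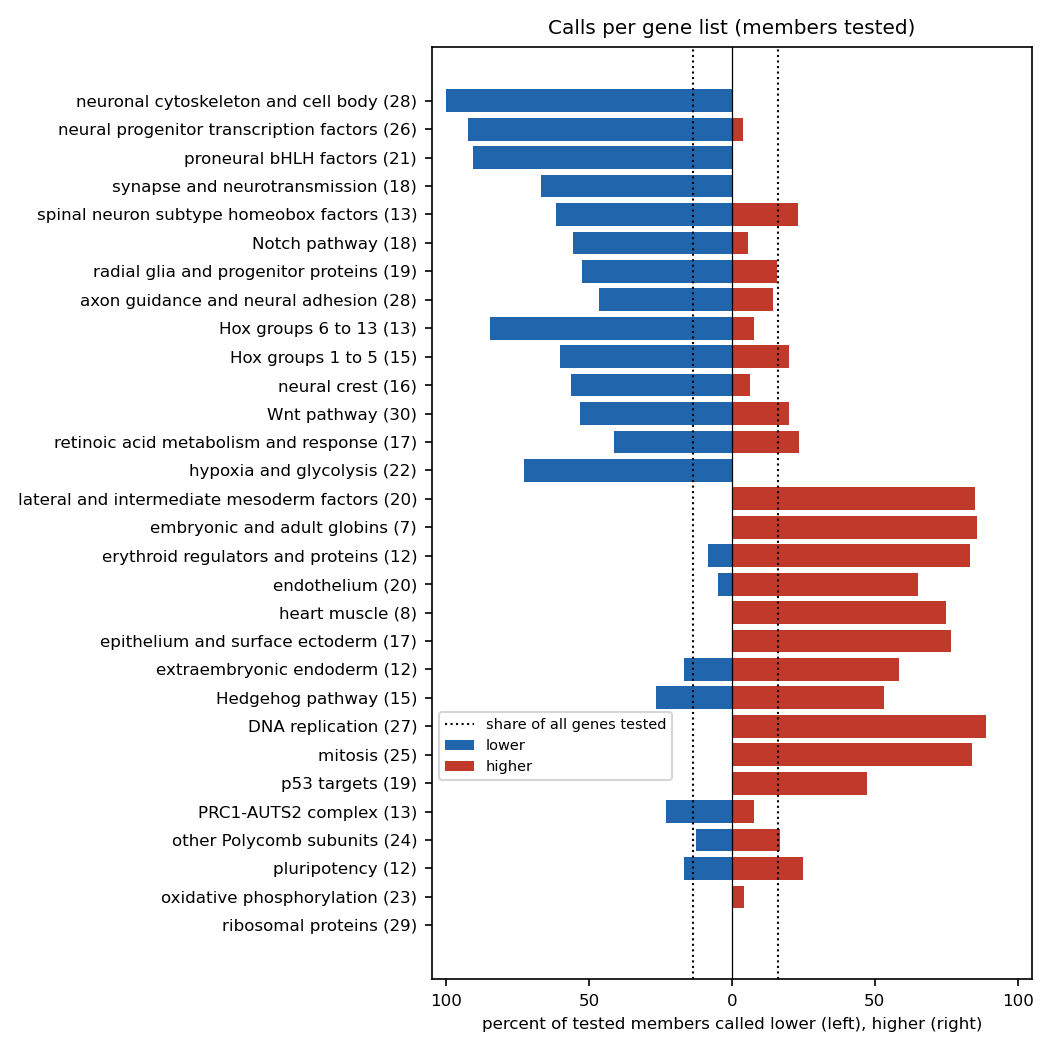
Share of the tested members of 30 gene lists called lower (blue, to the left) and higher (red, to the right) in the knockout, in percent, with the number tested in brackets; dotted lines mark the shares over all genes tested, 13.6% lower and 16.3% higher. Neuronal cytoskeleton genes reach 100% lower, mesoderm, globin and DNA replication genes exceed 80% higher, and ribosomal protein genes have no call.

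The protocol rests on retinoic acid, which cells sense through nuclear receptors. Of 17 genes of retinoic acid handling and response, 7 were lower, 4 higher and 6 not called, with a median of -0.28. The receptor genes Rara (-0.63) and Rarb (-0.50) were lower, while Rarg (-0.28) and Rxra (0.28) were not called. Cyp26a1, the enzyme that degrades retinoic acid and is itself induced by it, had 64 and 57.3 FPKM in the wild type and 12.3 and 16.4 FPKM in the knockout (-2.01 ± 0.17, adjusted p = 1.3e-04). Crabp2, which carries retinoic acid to the receptors, had 214 and 235 FPKM in the wild type and 30.8 and 47.6 FPKM in the knockout (-2.52 ± 0.22). Crabp1, another retinoic acid binding protein, changed by -2.38. The knockout levels of these 3 genes remained above 10 FPKM in both libraries, so none of these genes was silent.

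Aldh1a2, which makes retinoic acid in mesoderm, moved the other way, with 4.76 and 3.94 FPKM in the wild type and 17.6 and 15.4 FPKM in the knockout (1.71 ± 0.16, adjusted p = 2.5e-04). Tgm2 and the corepressor gene Nrip1, both known to respond to retinoic acid, rose by 1.08 and 0.90. Dhrs3, Stra6 and Rdh10, at 0.38, -0.37 and 0.60, were not called.

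The promoter of Cyp26a1 is shown because the gene is a known direct target of the retinoic acid receptors. The line gives the 200 bases before the RefSeq start (GRCm38.p6, chr19:37697608-37697807, plus strand), and capitals mark TGAACT, the reverse complement of AGTTCA, a repeat unit bound by retinoic acid receptors, 32 and 21 bases before the start. The unit occurs on either strand in 9.28% of RefSeq promoters of this length.
Cyp26a1: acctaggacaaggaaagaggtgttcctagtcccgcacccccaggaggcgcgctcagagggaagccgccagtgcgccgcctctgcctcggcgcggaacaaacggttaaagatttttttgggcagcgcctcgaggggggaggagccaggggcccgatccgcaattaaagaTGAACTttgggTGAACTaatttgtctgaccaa

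Hox genes, which give cells their position along the body axis, were mostly lower. Of 15 genes of groups 1 to 5, active towards the head, 9 were lower, 3 higher and 3 not called, with a median of -0.47. Of 13 tested genes of groups 6 to 13, active towards the tail, 11 were lower and 1 higher, with a median of -1.60. Hoxb9 had 192 and 194 FPKM in the wild type and 9.6 and 18.6 FPKM in the knockout (-3.75 ± 0.26, adjusted p = 5.1e-05). Hoxa6 had 40.5 and 32.1 FPKM in the wild type and 2.78 and 3.74 FPKM in the knockout (-3.13 ± 0.21, adjusted p = 5.1e-05). Hoxb7, Hoxb8 and Hoxa7 changed by -2.34, -2.24 and -2.03.

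Within the more anterior groups the differences ran in both directions. Hoxd4 had 54.1 and 51.5 FPKM in the wild type and 7.31 and 7.52 FPKM in the knockout (-2.68 ± 0.11, adjusted p = 8.0e-06), and Hoxd3 changed by -2.67. Hoxb2, Hoxb3 and Hoxc4 changed by -1.08, -1.02 and -1.01, about 2-fold. Hoxa5, with 153 and 156 FPKM in the wild type and 188 and 162 FPKM in the knockout, was not called, nor were Hoxa2 (-0.17) and Hoxb5 (-0.35). Hoxb1 was called higher (0.70). Hoxa4 (0.60) and Hoxc5 (0.43) were higher too, calls that were lost without any 1 of the 4 libraries (adjusted p 0.0573 to 0.187).

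The gene at the far end of the Hoxb cluster went against its neighbours. Hoxb13, expressed in the tail bud and hindgut, had 3.7 and 3.06 FPKM in the wild type and 26.8 and 28.4 FPKM in the knockout (2.71 ± 0.28, adjusted p = 3.7e-04). Its groups did not overlap, and it lies on chromosome 11 with the Hoxb genes that fell. Markers of the forebrain and midbrain were mostly untested, 6 of 19 passing the filter, with 2 higher, 3 lower and 1 not called. Emx2, a forebrain homeobox gene, went from 3.12 and 3.98 to 1.11 and 1.65 FPKM (-0.94 ± 0.15).

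Wnt signalling, which patterns the dorsal neural tube and the tail bud, had more members lower than higher. Of 30 tested, 16 were lower, 6 higher and 8 not called, with a median of -0.73. Wnt1, a ligand of the dorsal midline, had 18.2 and 16.6 FPKM in the wild type and 0.278 and 1.3 FPKM in the knockout (-3.42 ± 0.25, adjusted p = 6.2e-05). Fzd10, a receptor of the dorsal spinal cord, had 40.2 and 31.1 FPKM in the wild type and 0.525 and 1.94 FPKM in the knockout (-4.10 ± 0.28, adjusted p = 5.3e-05). Nkd1, a feedback target, changed by -2.21 and the receptor gene Fzd3 by -1.76.

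The higher calls made up 20% of the Wnt genes tested, against 16.3% over all genes, and included Rspo3 and Wnt5a. Rspo3, which amplifies Wnt signals, had 1.17 and 1.75 FPKM in the wild type and 12.2 and 9.92 FPKM in the knockout (2.29 ± 0.16, adjusted p = 6.1e-05). Wnt5a, the main ligand of the planar polarity branch, went from 4.12 and 3.77 to 19.4 and 15.4 FPKM (1.89 ± 0.14), and Fzd7 rose by 0.77. Without wild-type replicate 1, or with only the 4 NPC libraries in the fit, 3 members rather than 6 were higher.

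Hedgehog genes also split. Of 15 tested 8 were higher and 4 lower. Gli1, the target that reports the pathway, had 6.53 and 6.09 FPKM in the wild type and 13.9 and 15.5 FPKM in the knockout (1.10 ± 0.11, adjusted p = 3.0e-04). The coreceptor genes Boc, Cdon and Gas1 changed by -1.29, -1.17 and -0.74. The call of the ligand gene Ihh (0.79) was lost without any 1 library, and the count of higher members fell to 3 or 4 without any 1 library and to 4 with median-ratio scaling.

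Among 26 genes of BMP and TGF-beta signalling, 9 were higher and 6 lower. Gdf6, a ligand, rose from 0.121 and 0.263 to 2.27 and 2.11 FPKM (1.42 ± 0.11), the decoy receptor gene Bambi from 2.33 and 2.63 to 9.41 and 7.36 FPKM (1.42 ± 0.14), and Smad9 and Tgfb2 by 1.24 and 1.11. Id4, the neural member of the Id family, changed by -1.06, while Id1 (0.56) and Id2 (0.49) were not called. Of 15 FGF pathway genes 4 were higher and 4 lower, with Fgfr3 (-2.22), a receptor of neural progenitors, and Dusp4 (-2.22) lower and Fgf10 (1.41), a mesenchymal ligand, higher; 2 higher calls stood without knockout replicate 2 or wild-type replicate 2, and 2 lower calls without knockout replicate 1 or either wild-type library.

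Growth factor genes of the insulin-like family separated by member. Igfbp2, a binding protein of neuroepithelium, had 126 and 134 FPKM in the wild type and 20.8 and 24.7 FPKM in the knockout (-2.47 ± 0.10, adjusted p = 8.0e-06). Igfbp5, a binding protein of mesenchyme, had 48 and 46.3 FPKM in the wild type and 169 and 155 FPKM in the knockout (1.76 ± 0.11, adjusted p = 4.1e-05). Igfbp3 changed by -2.0, Igf1 rose by 1.51 and Igfbp4 (-0.09) was not called. The chemokine gene Cxcl12, made by stromal cells, went from 12.2 and 6.61 to 80.5 and 59.7 FPKM (2.81 ± 0.26). Over 21 genes of VEGF, PDGF and IGF signalling 8 were higher and 5 lower, with 5 higher without any 1 library and 3 lower without knockout replicate 2 or either wild-type library.

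Cell division genes were higher by small amounts. Of 27 DNA replication genes 24 were higher, none lower, with a median of 0.46, and of 25 mitosis genes 21 were higher, none lower, with a median of 0.40. Mcm5, a subunit of the replicative helicase, had 58.8 and 57.9 FPKM in the wild type and 97.1 and 90.8 FPKM in the knockout (0.68 ± 0.07, adjusted p = 4.8e-04). Cdk1, the mitotic kinase, had 33.5 and 32.2 FPKM in the wild type and 52.8 and 49 FPKM in the knockout (0.62 ± 0.08). Birc5, which encodes survivin, had 80.1 and 73.6 FPKM in the wild type and 154 and 147 FPKM in the knockout (0.96 ± 0.08), the widest difference of the mitosis list. Pcna (0.10), Rrm1 (0.06), Rrm2 (0.15), Plk1 (0.25) and Ccnb2 (0.09) were not called. Without knockout replicate 1 the higher counts were 15 and 13, and 13 mitosis genes were higher without knockout replicate 2 or wild-type replicate 2. Birc5, Top2a and Cdc6 lie on chromosome 11, and elsewhere 22 of 25 replication genes and 18 of 22 mitosis genes were higher.

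Of 20 CDK inhibitors and cyclins, 6 were higher, 2 lower and 12 not called, and the inhibitors differed between families. Cdkn1c, an imprinted inhibitor that accompanies cell cycle exit in neuroblasts, had 95.4 and 101 FPKM in the wild type and 2.68 and 3.36 FPKM in the knockout (-4.63 ± 0.15, adjusted p = 8.0e-06). Cdkn2a, at the Ink4a/Arf locus that Polycomb represses, had 6.21 and 3.33 FPKM in the wild type and 16.2 and 18.3 FPKM in the knockout (1.71 ± 0.23, adjusted p = 0.00125). Rb1 changed by -0.90, and Cdkn1b (0.41), Ccnd1 (0.18) and Ccnd2 (0.18) were not called. Of 19 p53 target genes 9 were higher and none lower, with a median of 0.44; Trp53inp1 had 28.6 and 27.4 FPKM in the wild type and 66.5 and 61.7 FPKM in the knockout (1.17 ± 0.08), Ccng1 and Cdkn1a rose by 0.78 and 0.53, and Mdm2 (0.31) was not called.

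Hypoxia and glycolysis genes were lower in 16 of 22 cases and higher in none, with a median of -0.57. Slc2a1, the main glucose transporter of embryonic cells and red blood cells, had 69.3 and 94.8 FPKM in the wild type and 21.2 and 27.1 FPKM in the knockout (-1.72 ± 0.16, adjusted p = 2.2e-04). Bnip3, a hypoxia-induced mitochondrial protein, had 33.5 and 40.7 FPKM in the wild type and 13.9 and 11.5 FPKM in the knockout (-1.48 ± 0.15). Pgk1, a glycolytic enzyme, had 280 and 320 FPKM in the wild type and 172 and 157 FPKM in the knockout (-0.86 ± 0.09). Gapdh (-0.15) and Aldoa (0.06) were not called. Without knockout replicate 2 or wild-type replicate 2, 10 members were lower.

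Genes that every cell uses moved little. None of 29 ribosomal protein genes was called by limma, 2 having an unadjusted p below 0.05, with a median of -0.08, and 1 of 23 oxidative phosphorylation genes was (Atp5o, 0.27, lost without any 1 library, adjusted p 0.0891 to 0.192). Among 11 genes of brain lipid and energy handling, 6 were lower and 2 higher, the lower ones 3 without either wild-type library. Apoe, a lipid carrier gene, went from 18 and 19.8 to 42 and 42.2 FPKM (1.12 ± 0.09). Of 19 matrix genes 5 were higher and 5 lower, and Lamc1 (0.12) and Hspg2 (0.10) were not called. The lower matrix calls were between 1 and 3 with any 1 library left out.

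Imprinted genes, transcribed from 1 parental copy, were called in 11 of 27 cases, 7 higher and 4 lower. Besides Cdkn1c, the lower genes were Grb10, with 25.4 and 22.4 FPKM in the wild type and 2.15 and 1.33 FPKM in the knockout (-3.20 ± 0.16, adjusted p = 1.6e-05), Zim1 (-2.10) and Igf2r. Igf2r had 9.85 and 9.47 FPKM in the wild type and 2.12 and 2.51 FPKM in the knockout (-1.69 ± 0.11). Airn, the antisense transcript that overlaps Igf2r, had 4.67 and 8.08 FPKM in the wild type and 26.6 and 31.9 FPKM in the knockout (2.07 ± 0.22). The library kit was directional, but the sources used here do not say whether the counting used strand, so reads from the part where the 2 genes overlap may be assigned to either. Peg10 rose from 169 and 157 to 381 and 352 FPKM (1.16 ± 0.10), and H19 (0.58), Mest (0.09) and Gnas (0.08) were not called.

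Among the other genes with the widest rises, Grin2c, an NMDA receptor subunit gene, had 0.788 and 0.421 FPKM in the wild type and 15.7 and 14.6 FPKM in the knockout (3.34 ± 0.14, adjusted p = 8.0e-06). Ifitm1, an interferon-inducible membrane protein gene of early mesoderm and germ cells, had 15.4 and 15.6 FPKM in the wild type and 125 and 116 FPKM in the knockout (2.88 ± 0.12). Sh3bgr went from 2.38 and 2.75 to 34 and 27.6 FPKM and Sel1l3 from 0.429 and 0.483 to 11.9 and 9.27 FPKM. None of these 4 genes showed overlap between the groups.

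A further pattern concerned chromosome 11, which carries Dcaf7. Of 1037 genes tested there, 322 (31.1%) were called higher and 106 (10.2%) lower, and their median difference was 0.22. On the 19 other chromosomes, the median was between -0.02 and 0.06 and the share called higher between 10.8% and 18.6%. The 2 knockout NPC libraries each had a median of 0.22 on chromosome 11 against the wild-type mean, and in the knockout ESC the medians there were 0.04 and 0.03. The shift in the NPC was spread along the chromosome: in all 13 windows of 10 Mb, over 755 genes at 5 FPKM or more in the wild type, the median was 0.10 to 0.45 in knockout replicate 1 and 0.09 to 0.33 in replicate 2. In the knockout ESC the window at the far end, over 36 genes, had medians of 0.22 and 0.25, against 0.27 and 0.29 in the knockout NPC, and the other 12 windows lay between -0.05 and 0.10.

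Most of these differences were small, with 284 of the 322 higher genes under 2-fold. Chromosome 11 thus held 8.34% of the genes tested but 15.9% of the higher calls. It also held 57 genes that were lower by 2-fold or more, Grb10, Hoxb7, Hoxb8 and Hoxb9 among them. The cause of this shift was not tested. Leaving all its genes out of the fit left 1684 genes higher and 1575 lower. In the fit with all genes, the members of several lists on the other chromosomes kept the direction of their list. Higher were 16 of 19 for mesoderm, 11 of 16 for endothelium and 9 of 11 for erythroid regulators. Lower were 24 of 25 progenitor factors and 26 of 26 neuronal genes.

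**Figure D4:**
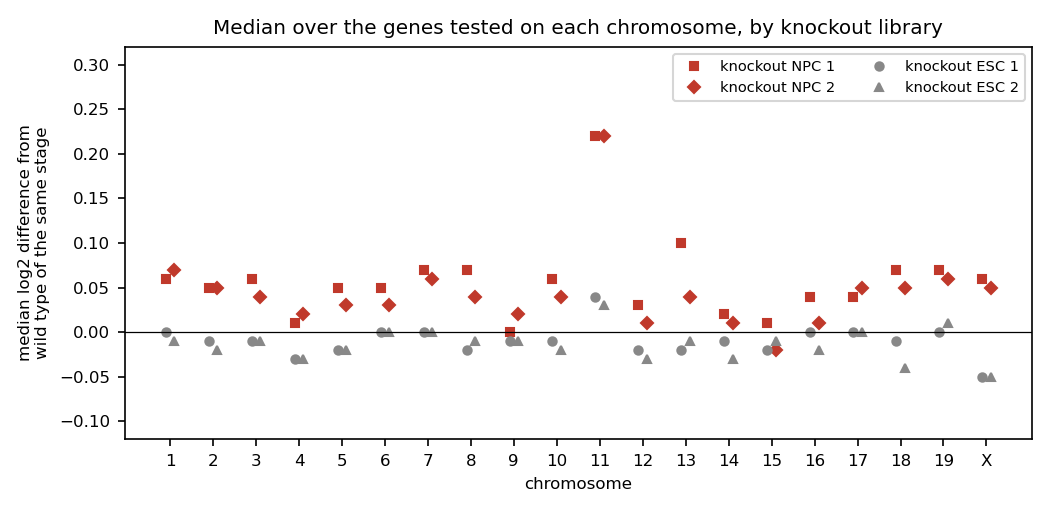
Median log2 difference in FPKM + 1 of each knockout library from the wild-type mean of the same stage (vertical axis) over the genes tested on each chromosome (horizontal axis); red squares and diamonds are knockout NPC replicates 1 and 2, grey circles and triangles knockout ESC replicates 1 and 2. Both NPC points of chromosome 11 stand at 0.22, above every other chromosome, while its ESC points are at 0.04 and 0.03.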

How the data were processed

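Poly(A) RNA was sequenced in 8 libraries, 2 per genotype and stage. Per the submitters' processing notes, the authors used TopHat2 2.1.1, Cufflinks 2.2.1 and the mm9 build. The deposited tables hold FPKM per gene with 95% confidence bounds and no counts. Each table has 24854 entries with 24318 symbols; 285 symbols with several entries were summed, and 10 whose estimate had failed in an NPC library were left out. The bounds of 1 gene depend on its fragment number, so fragments per library were estimated from them and summed. The estimate is approximate. Of low entries with 1 listed start (fewer than 5 implied fragments), 66.9% to 71.6% per NPC library gave a number within 0.05 of a whole one.

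Values entered limma 3.58.1 (R 4.3.3) as log2(FPKM + 1) for genes reaching 1 FPKM in 2 or more NPC libraries. The model had 4 group means over all 8 libraries, 4 residual degrees of freedom and a trend of variance with level, and tests were two-sided. The script was tested on simulated data. The comparison, 46 gene lists and naming rule were chosen with earlier results of these data known. The text names the 15 called genes with the widest rise and fall above 5 FPKM, leaving out predicted, small RNA and histone genes, and up to 6 members per list, with exceptions and uncalled members. Alternatives were other filters, pseudocounts, scalings and sample sets. Where 0 is listed for an NPC library, the estimate was not marked as failed, but the true level is unknown.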

Additional observations from a re-analysis of the deposited data

How the results depend on the processing

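With any 1 of the 4 NPC libraries left out, 2434 to 2882 genes were called, 1139 to 1519 higher and 1268 to 1363 lower. Lower calls outnumbered higher ones without knockout replicate 1 (1295 against 1139) and, narrowly, without knockout replicate 2 (1292 against 1290), so the direction with more calls depends on single libraries as well as on the scaling. Of the 3717 calls, 2321 to 2618 remained, and of the 1038 calls past 2-fold 992 to 1007 remained. Genes past 2-fold numbered 1011 to 1081, with 295 to 357 higher and 708 to 743 lower. A group left with 1 library is assumed to vary like the others. An FPKM minimum of 5 lowered the counts, as it tests 8872 genes: 1016 were lower, and 594 were past 2-fold, 194 higher and 400 lower. It also removed low members of several lists, leaving 12 proneural factors, 4 Notch genes, 10 Wnt genes and 3 synaptic genes lower, and 4 endothelial, 3 erythroid and 2 heart genes higher. Median-ratio scaling gave 1578 higher and 1837 lower, and moved the median over all genes from 0.06 to 0.01. Fitting only the 4 NPC libraries, without the ESC in the estimate of the spread, gave 3091 calls and kept 2939 of the 3717. Quantile normalization gave 4054 calls, no filter 3723, a pseudocount of 0.1 3138 and the highest entry per symbol 3716. Leaving out chromosome 11, an alternative chosen after seeing the data, gave 3259. Dcaf7, itself on chromosome 11, stayed lower and called in each of the other settings.

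The genotypes share replicate numbers, but nothing in the labels says that a number marks a shared culture or day, and there are 2 numbers only. Deviations of same-numbered NPC libraries correlated at 0.101. With a replicate block, 3559 genes were called, 1916 higher and 1643 lower, and 1039 were past 2-fold, 312 higher and 727 lower.

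Depth limits genes near 1 FPKM, which rest on few fragments, and genes listed at 0, whose true level is unknown. Spread is estimated from 2 libraries per group, so small differences such as those of the cell division genes are the least secure.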
